A study of Mus musculus with 7 samples.

Results

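Chemokines are small secreted proteins that guide leukocyte movement through G protein-coupled receptors, and the CXC family is named for a single residue that separates its leading cysteines. Some members are induced by interferons: CXCL9 and CXCL10 bind CXCR3 on activated T cells and natural killer cells. Others are called homeostatic because many tissues make them without inflammation: CXCL12 acts through CXCR4 and is taken up by the scavenger receptor ACKR3, CXCL13 attracts CXCR5+ B cells, and CXCL14 is made by epithelia and other barrier tissues. CXCL16 is made as a membrane protein that is shed by ADAM proteases and binds CXCR6. In peripheral nerve, macrophages that enter the gap between the stumps are known to clear debris and to support regrowth.

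The 6 genes described here are Cxcl9, Cxcl10, Cxcl12, Cxcl13, Cxcl14 and Cxcl16. They were picked by symbol, with earlier results of these data known, and all 6 were listed among the 23361 genes of the table and passed the filter on low counts. RNASeq was run on macrophages of wild-type BALB/cJ mice, taken from the regenerative bridge inside a conduit that joined the stumps of the transected left sciatic nerve. Cells were sorted as Lin-F4/80+CD14+CD11b+CD16/32+, where the lineage markers excluded granulocytes, eosinophils, B cells, T cells, erythroid cells and Thy1.2+ fibroblasts. An antibody to the endothelial marker CD31 was listed with the same dye as these, without being named among the exclusion markers. Day 5 after repair gave 3 libraries and days 14 and 28 gave 2 each, and all mice had the same injury and conduit. No uninjured nerve was among the libraries used here, the age of the mice was not given in the sources used here, and neither was whether a library held the cells of 1 mouse or several.

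The libraries held 18027190 to 35247116 fragments assigned to genes. All 8 macrophage markers examined were above the floor of 3 fragments in every library, with summed levels of 15951 to 22066 FPKM (fragments per kilobase of transcript, scaled to library size). Of the 7 fibroblast markers, 6 were above that floor in every library, and their sum was highest in day 14 replicate 1, at 223 FPKM against 28.8 to 81.2 FPKM in the other 6. The summed levels were 8.18 to 30.4 FPKM for 6 dendritic cell markers, 3.75 to 26.9 FPKM for 5 endothelial markers and 152 to 595 FPKM for 5 neutrophil markers. Most of the dendritic cell sum came from Ccr7 and Cd209a, and most of the neutrophil sum from S100a8 and S100a9. The 6 Schwann cell markers summed to 10.7 to 19.9 FPKM, nearly all from Mbp, and the 6 T and NK cell markers to at most 0.978 FPKM. The 4 B cell markers summed to 4.42 to 10.8 FPKM, nearly all from Cd79b. In sorted bulk cells, fewer cells of a type and less RNA per cell cannot be told apart.

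Measured per transcript length, the 6 chemokines spanned about 3 orders of magnitude at day 5. Cxcl16 and Cxcl10 were the most abundant at day 5 and were not called changed in any comparison. Cxcl12 and Cxcl13 were highest at day 14. Cxcl14, Cxcl9 and Cxcl10 had their highest mean at day 28. None of the 6 was called between days 14 and 28, so these orders of means are a description. The plot of FPKM by library shows all 6.

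**Figure D1:**
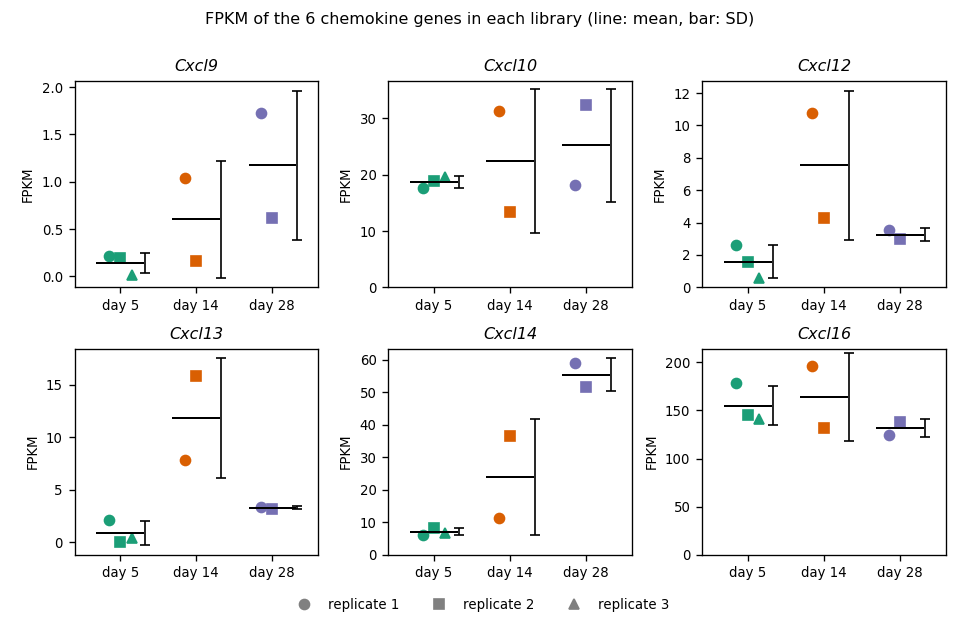
FPKM of each chemokine gene (y axis, linear) by day after repair (x axis). Each symbol is 1 library (circle, replicate 1; square, replicate 2; triangle, replicate 3), lines are means and bars the SD, with n = 3 at day 5 and n = 2 at days 14 and 28. The Cxcl14 libraries of day 28, at 51.8 and 59.2 FPKM, sit above those of every earlier day, and the Cxcl16 libraries stay between 125 and 196 FPKM.

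At day 5 the order of mean levels was Cxcl16 at 155 ± 20.6 FPKM (SD, n = 3), Cxcl10 at 18.7 ± 1.01 FPKM, Cxcl14 at 7.01 ± 1.07 FPKM, Cxcl12 at 1.59 ± 1.01 FPKM, Cxcl13 at 0.869 ± 1.15 FPKM and Cxcl9 at 0.142 ± 0.109 FPKM. The libraries of Cxcl12 and Cxcl13 overlapped, as did those of Cxcl13 and Cxcl9, so their order at day 5 was not resolved. By day 28 the order was Cxcl16 at 132 ± 9.62 FPKM (SD, n = 2), Cxcl14 at 55.5 ± 5.23 FPKM, Cxcl10 at 25.2 ± 10.1 FPKM, Cxcl13 at 3.29 ± 0.143 FPKM, Cxcl12 at 3.25 ± 0.389 FPKM and Cxcl9 at 1.17 ± 0.790 FPKM. There, Cxcl12 and Cxcl13 alone among neighbours overlapped. At day 14, between these, Cxcl16 was highest at 164 ± 45.7 FPKM (n = 2) and Cxcl9 lowest at 0.603 ± 0.620 FPKM. The other 4 genes, from 23.9 ± 17.9 FPKM for Cxcl14 down to 7.54 ± 4.61 FPKM for Cxcl12, overlapped with their neighbours in the order.

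Cxcl16 made up most of the summed FPKM of the 6 genes in every library, from 83.4% to 86.2% at day 5 down to 59.2% and 60.4% at day 28. The sum of the other 5 was 27.4 to 28.8 FPKM in the day 5 libraries, 62.3 and 70.3 FPKM at day 14 and 85.9 and 90.9 FPKM at day 28. Cxcl14 took 2.93% to 4.71% of the summed FPKM of the 6 at day 5, and 28.1% and 22.6% at day 28. Among 17326 genes with a fragment, the mean level of Cxcl16 stood at the 96.6th percentile on day 5 and the 96.5th on day 28. That of Cxcl14 moved from the 61.7th percentile on day 5 to the 92.0th on day 28.

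Time points were compared with edgeR (quasi-likelihood F test, with p-values adjusted by the method of Benjamini and Hochberg over 12858 genes), from which all adjusted p-values here stem unless another fit is named. A gene counted as DE at an adjusted p under 0.05, and stringent DE genes also differed at least 2-fold in mean FPKM and reached a mean of 5 FPKM at one of the time points. Between days 5 and 14, 3 of the 6 chemokines were DE, all higher at day 14 and all stringent DE, where 4.78% of all genes tested were DE (2.84% higher) and 1.17% stringent DE. Between days 14 and 28 edgeR called none of the 6, with 2 at an unadjusted p under 0.05. In that comparison 0.0622% of all genes were DE, which is 8 genes, and 1570 had an unadjusted p under 0.05, while 0.0467% were stringent DE. The DESeq2 fit called none of the 6 there either. Between days 5 and 28, 2 of the 6 were DE, both higher at day 28, beside 15.2% of all genes (7.74% higher), and 1 of the 2 was stringent DE, beside 3.52%. The median log2 fold change of the 6 was 1.92, -0.07 and 1.45 in the 3 comparisons, beside 0.03, 0.01 and 0.03 over all genes tested.

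**Figure D2:**
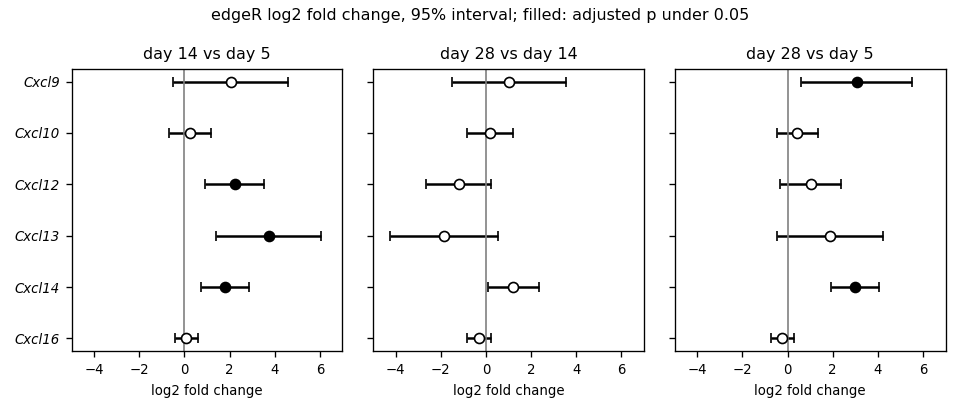
Log2 fold change (x axis) of each chemokine (y axis) in the 3 comparisons, from the edgeR fit of all 7 libraries. Bars are 95% intervals, filled symbols have an adjusted p under 0.05 and positive values are higher at the later day. The filled symbols are Cxcl12, Cxcl13 and Cxcl14 at day 14 vs day 5 and Cxcl9 and Cxcl14 at day 28 vs day 5.

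Cxcl10, the interferon-induced protein also known as IP-10, stood at 17.6, 18.8 and 19.6 FPKM at day 5, at 31.4 and 13.4 FPKM at day 14 and at 18.1 and 32.4 FPKM at day 28. The 3 days overlapped, and at each later day 1 library was near or below the day 5 level and the other well above it. The log2 fold change was 0.26 between days 5 and 14 (SE 0.33, adjusted p = 0.675, 95% interval -0.66 to 1.18). Between days 5 and 28 it was 0.44 (SE 0.33, adjusted p = 0.397, interval -0.48 to 1.35), and between days 14 and 28 it was 0.18 (SE 0.36, adjusted p = 0.883). Without day 14 replicate 1 the first of these turned to -0.47, and without day 28 replicate 2 the second turned to -0.035. The gene (chromosome 5, 92346638 to 92348889, GRCm38, minus strand) lies wholly inside Art3 on the opposite strand, for which 0 to 8 fragments were counted per library.

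Its promoter is shown with that of Cxcl14, since among the 5 promoters with a RefSeq entry (Cxcl9, Cxcl10, Cxcl12, Cxcl13 and Cxcl14) these were the ones that held a searched motif. The lines give the 250 bases before the transcription start from RefSeq (GRCm38.p6), on the gene's own strand: chr5:92348890-92349139, minus strand, for Cxcl10, and chr13:56296552-56296801, minus strand, for Cxcl14. Capitals mark the matches.
Cxcl10: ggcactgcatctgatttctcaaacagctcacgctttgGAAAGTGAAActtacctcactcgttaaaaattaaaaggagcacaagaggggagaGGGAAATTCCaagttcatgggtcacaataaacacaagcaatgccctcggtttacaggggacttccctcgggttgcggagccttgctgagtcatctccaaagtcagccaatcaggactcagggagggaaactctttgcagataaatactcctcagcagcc
Cxcl14: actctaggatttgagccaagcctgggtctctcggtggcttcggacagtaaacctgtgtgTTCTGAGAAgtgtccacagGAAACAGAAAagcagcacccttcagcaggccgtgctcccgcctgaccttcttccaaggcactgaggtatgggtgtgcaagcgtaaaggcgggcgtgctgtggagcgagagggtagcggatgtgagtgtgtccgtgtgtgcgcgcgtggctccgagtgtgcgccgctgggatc
In Cxcl10 the first run in capitals, at -213 to -204 from the start, matched GAAA, any 2 bases and GAAA, the core of the interferon-stimulated response element. The run at -159 to -150 matched GGGA, any 2 bases and TTCC, a core of NF-kB sites. In Cxcl14 the capitals at -191 to -183 matched TTCNNNGAA, the gamma-activated sequence of interferon signalling, and those at -172 to -163 matched the same interferon-stimulated element as in Cxcl10. Both strands were searched and the matches did not overlap. Of 27018 promoters of the same length, 7.18% held the gamma-activated sequence, 3.04% the interferon-stimulated element and 1.17% the NF-kB core. Cxcl16 had no entry.

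Cxcl9, the other CXCR3 ligand of the set (chromosome 5, 92321347 to 92328079, minus strand), was near the limit of detection at day 5 with 14, 11 and 1 fragments, or 0.212, 0.198 and 0.0169 FPKM. At day 14 its libraries held 1.04 and 0.165 FPKM, and at day 28 they held 1.73 and 0.615 FPKM. Both day 28 libraries were above all of day 5, and the day 14 libraries overlapped with both. Cxcl9 was DE between days 5 and 28 (log2 difference 3.05, SE 0.89, adjusted p = 0.0475), and at under 5 FPKM it was not stringent DE. The call was lost without any 1 of the 5 libraries of those days (adjusted p 0.0687 to 0.325), and without day 28 replicate 1 the log2 fold change was 2.10. The differences of 2.05 between days 5 and 14 (SE 0.92, adjusted p = 0.214) and of 1.01 between days 14 and 28 (SE 0.91, adjusted p = 0.696) were not called. Marker genes of dendritic cells, which can make CXCL9, summed to 8.18 to 13.0 FPKM in the day 5 libraries, 24.9 and 10.8 FPKM at day 14 and 19.8 and 30.4 FPKM at day 28. Most of each sum came from Ccr7 and Cd209a, with Ccr7 at 12.6 and 23.0 FPKM at day 28. Flt3, Zbtb46, Xcr1 and Clec9a were each under 1 FPKM in both day 28 libraries. Of the 6 dendritic cell genes 1, Ccr7, was higher at day 28 than at day 5 and none was lower (all genes, 7.74% higher). Its log2 difference was 1.43 (SE 0.39, adjusted p = 0.0400). The Ccr7 call was lost without any 1 library of days 5 and 28, and without day 28 replicate 2 the value was 0.93 (adjusted p = 0.236). Their part in the Cxcl9 level was not tested.

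Cxcl9 and Cxcl10 lie 18.558 kb apart on the same strand, with Art3 reaching into the gap on the other strand, and Cxcl11, which encodes the remaining CXCR3 ligand, lies 10.654 kb beyond Cxcl10. The GENCODE annotation on GRCm38 classes Cxcl11 as a polymorphic pseudogene, and its state in the BALB/cJ mice used here was not examined. It was at 0.556, 2.14 and 1.98 FPKM at day 5, 1.52 and 0.0965 FPKM at day 14 and 0.822 and 0.188 FPKM at day 28, from 3 to 61 fragments. These levels overlapped, and Cxcl11 was not called in any comparison (adjusted p 0.325 to 0.877). The FPKM ratio of Cxcl10 to Cxcl9 ran from 10.5 in day 28 replicate 1 to 95.2 in day 5 replicate 2, and was 1164 in day 5 replicate 3, where it rests on 1 fragment of Cxcl9. The receptor gene Cxcr3 was at 1.55, 1.97 and 1.85 FPKM at day 5, 3.10 and 1.55 FPKM at day 14 and 0.956 and 0.812 FPKM at day 28. Both day 28 libraries were below the rest, without a call against day 14 (adjusted p = 0.241) or day 5 (adjusted p = 0.125).

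The interferon pathway list had 15 genes, of which 14 were tested. Between days 5 and 14 none was higher and 1 was lower (all genes, 1.94% lower), between days 14 and 28 edgeR called none, and between days 5 and 28 none was higher and 3 were lower (all genes, 7.51% lower). The median log2 fold change of the 14 was -0.12, -0.24 and -0.39. The genes called lower at day 28 than at day 5 included Irf9, a transcription factor of type I signalling (36.8, 33.2 and 32.9 FPKM against 24.6 and 19.9 FPKM, adjusted p = 0.0176), and Ifnar1, a chain of the type I receptor (adjusted p = 0.0492). Irf9 fell by 0.61 on the log2 scale (SE 0.13) and Ifnar1 by 0.48 (SE 0.14). Ifnar1 was also lower at day 14 than at day 5, by 0.58 on the log2 scale (SE 0.14, adjusted p = 0.0492). With 1 library left out, Irf9 lost its call without day 5 replicate 1 or day 28 replicate 2 (0.0664 and 0.0889). Ifnar1 kept its day 28 call only without a day 14 library and its day 14 call only without day 14 replicate 1. Ifng itself was at 0 fragments in 6 libraries and at 9 in day 14 replicate 1, and was not tested.

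Ifnb1, the type I interferon on the list, was at 0.794, 0.512 and 1.36 FPKM at day 5, 2.43 and 0 FPKM at day 14 and 1.55 and 5.11 FPKM at day 28, from 0 to 56 fragments. It was not called in any comparison (adjusted p 0.263 to 0.866). The pair of libraries with the most Ifnb1, day 28 replicate 2 and day 14 replicate 1, also had the most Cxcl10, and the library with no Ifnb1 fragment had the least. Over the 7 libraries, of which those of a day share that day and which differ in depth, Pearson's r between the log2(FPKM + 1) values of Cxcl10 and Ifnb1 was 0.91 and that between Cxcl9 and Ifnb1 was 0.48. These pairs were picked after their values were seen and are given as a description.

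**Figure D3:**
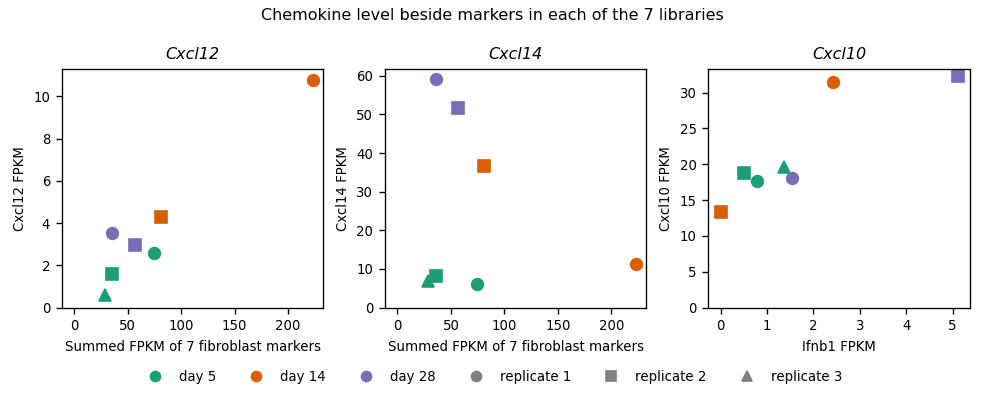
FPKM of Cxcl12 and Cxcl14 (y axes of the left and middle panels) against the summed FPKM of 7 fibroblast markers (x axis), and FPKM of Cxcl10 (right panel) against that of Ifnb1; all axes are linear and each symbol is 1 of the 7 libraries, coloured by day. Cxcl12 and the marker sum were both highest in day 14 replicate 1, at 10.8 and 223 FPKM, where Cxcl14 was at 11.2 FPKM, and Cxcl10 was highest in the 2 libraries with the most Ifnb1.

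Cxcl12, also called SDF-1 (chromosome 6, 117168535 to 117181367, plus strand), stood at 2.61, 1.58 and 0.583 FPKM at day 5, 10.8 and 4.28 FPKM at day 14 and 3.52 and 2.97 FPKM at day 28. Both day 14 libraries were above all others, and the day 28 libraries lay between those of days 5 and 14. The rise from day 5 to day 14 was stringent DE (log2 fold change 2.22, SE 0.48, adjusted p = 0.0370, 95% interval 0.89 to 3.55). Day 28 did not differ detectably from day 14 (-1.20, SE 0.52, adjusted p = 0.396) or from day 5 (1.02, SE 0.48, adjusted p = 0.182). In the first comparison each library left out, other than day 14 replicate 2, took the adjusted p above 0.05 (0.0579 to 0.118), and without day 14 replicate 1 the log2 fold change was 1.47.

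Fibroblasts are a known source of CXCL12, and 7 fibroblast markers were set beside it. The marker sum was 74.1, 35.6 and 28.8 FPKM at day 5, 223 and 81.2 FPKM at day 14 and 35.6 and 57.0 FPKM at day 28. Of the 7 markers, 1 was called higher at day 14 than at day 5 and none lower (all genes, 2.84% higher and 1.94% lower). In that comparison 6 had a log2 fold change above 0, with Thy1 below. The 1 called was Col1a2, a chain of type I collagen (log2 fold change 1.86, SE 0.39, adjusted p = 0.0350). That call held without either day 14 library, at 1.02 without replicate 1 and 2.39 without replicate 2, and was lost without any other (adjusted p 0.0592 to 0.115). The median log2 fold change of the 7 was 1.72 between days 5 and 14 and -1.68 between days 14 and 28, where edgeR called none. Pearson's r of log2(FPKM + 1) with Col1a2 over the 7 libraries was 0.95 for Cxcl12 and 0.09 for Cxcl14, pairs also picked after their values were seen. The 5 neutrophil markers also summed highest at day 14, at 595 and 578 FPKM against 336 to 358 FPKM at day 5 and 291 and 152 FPKM at day 28. Cxcl12 and Cxcl13 were highest at day 14 too. Most of the neutrophil sum in every library came from S100a8 and S100a9. None of the 5 markers was called higher at day 14 than at day 5 and 1, Mmp8, was lower (all genes, 2.84% higher and 1.94% lower). Of the 5, 3 had a log2 fold change above 0 and 2 below, and that of S100a9 was 1.05 without a call (SE 0.26, adjusted p = 0.0515). The part of fibroblast or neutrophil RNA in the Cxcl12 and Cxcl13 levels was not tested.

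The signalling receptor gene Cxcr4 was the most abundant of the 6 receptors listed, at 244, 191 and 220 FPKM at day 5, 300 and 277 FPKM at day 14 and 289 and 290 FPKM at day 28. All later libraries were above those of day 5, by 0.41 between days 5 and 14 (SE 0.13, adjusted p = 0.0963) and 0.42 between days 5 and 28 (SE 0.13, adjusted p = 0.0578) on the log2 scale, without a call. Ackr3, which encodes the scavenger receptor and is listed under its older symbol Cxcr7, moved the opposite way. It was at 9.29, 10.5 and 13.8 FPKM at day 5, 2.68 and 5.86 FPKM at day 14 and 2.73 and 2.80 FPKM at day 28. Ackr3 was stringent DE and lower at day 14 (log2 fold change -1.35, SE 0.32, adjusted p = 0.0451) and at day 28 (-1.99, SE 0.33, adjusted p = 0.00555), both against day 5. It was the only one of the 5 tested receptors to be called (all genes, 1.94% lower at day 14 and 7.51% lower at day 28). The day 14 call held at -0.89 without day 14 replicate 1 and at -2.06 without replicate 2, and was lost without any other library (adjusted p 0.0768 to 0.130), while the day 28 call was lost only without day 28 replicate 1 (adjusted p = 0.0703). Markers of endothelial cells, which also express Ackr3, summed to 26.9, 14.6 and 20.7 FPKM at day 5, 14.0 and 7.35 FPKM at day 14 and 6.86 and 3.75 FPKM at day 28. Of those 5 genes 2 were lower and 1 higher at day 28 than at day 5 (all genes, 7.51% lower and 7.74% higher), and their part was not tested.

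**Figure D4:**
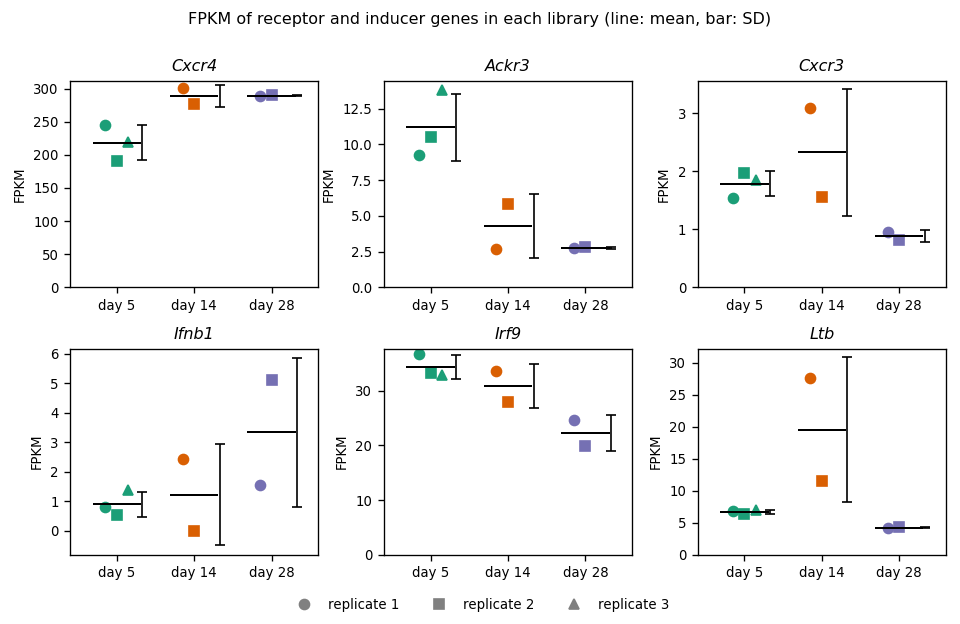
FPKM (y axes, linear) of 3 receptor genes and 3 genes of inducing pathways by day after repair (x axis). Symbols are libraries (circle, replicate 1; square, replicate 2; triangle, replicate 3), lines means and bars the SD, with n = 3, 2 and 2. Ackr3 is at 9.29 to 13.8 FPKM at day 5 and at most 5.86 FPKM later, while Cxcr4 stays between 191 and 300 FPKM.

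Cxcl13, the B cell attractant (chromosome 5, 95956951 to 95961068, plus strand), showed the largest fold change of the 6. It was at 2.18, 0 and 0.427 FPKM at day 5, at 7.82 and 15.9 FPKM at day 14 and at 3.39 and 3.19 FPKM at day 28. Both day 14 libraries were above all others, and both day 28 libraries were above all of day 5. The day 5 values rest on 51, 0 and 9 fragments, and a count of 0 in that library allows up to 3 fragments. From day 5 to day 14 the rise was stringent DE (log2 fold change 3.73, SE 0.84, adjusted p = 0.0415, 95% interval 1.40 to 6.06). The difference of -1.85 from day 14 to day 28 (SE 0.86, adjusted p = 0.430) and that of 1.88 from day 5 to day 28 (SE 0.85, adjusted p = 0.165) were not called. Without day 5 replicate 1, which held most of the day 5 fragments, these log2 fold changes were 5.74 between days 5 and 14 (adjusted p = 0.0279) and 3.89 between days 5 and 28 (adjusted p = 0.0299). The first call also held without day 14 replicate 1 (4.15) and was lost without each of the other 5 libraries (adjusted p 0.0657 to 0.127), where the log2 fold change was 3.13 to 3.73. The DESeq2 fit did not call it (adjusted p = 0.125).

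Its receptor gene Cxcr5 was counted at 3 to 19 fragments per library and was not called. Among B cell markers, Cd79b was tested and not called. In lymphoid tissue Cxcl13 is induced through the lymphotoxin receptor and alternative NF-kB signalling. Of the 7 genes listed for that pathway, all tested, 2 were called higher and none lower at day 14 than at day 5 (all genes, 2.84% higher). In that comparison 3 of the 7 had a log2 fold change above 0 and 4 below. Between days 14 and 28 edgeR called none, and 3 were lower and none higher at day 28 than at day 5 (all genes, 7.51% lower). The median log2 fold change of the 7 was -0.24 between days 5 and 14, -0.46 between days 14 and 28 and -0.65 between days 5 and 28. Ltb, the membrane chain of lymphotoxin, was at 6.80, 6.30 and 6.99 FPKM at day 5, 27.6 and 11.5 FPKM at day 14 and 4.17 and 4.30 FPKM at day 28. Like Cxcl13 it was highest in both day 14 libraries, and its rise from day 5 was stringent DE (log2 fold change 1.55, SE 0.31, adjusted p = 0.0314). The Ltb call held without day 14 replicate 2 (2.04) and was lost without any other library, at 0.80 without day 14 replicate 1 (adjusted p = 0.0662). Within day 14 the order was the opposite, with Ltb highest in replicate 1 and Cxcl13 highest in replicate 2. Map3k14, the kinase NIK of that pathway, was higher at day 14 than at day 5 by 0.68 on the log2 scale (SE 0.16, adjusted p = 0.0491). Lower at day 28 than at day 5 were Nfkb2 (-0.92, SE 0.22, adjusted p = 0.0250) and Relb (-0.85, SE 0.19, adjusted p = 0.0195), which encode the subunits of alternative NF-kB, and the receptor gene Ltbr (-0.45, SE 0.11, adjusted p = 0.0297). Map3k14 lost its call without a day 5 library or day 14 replicate 1 (adjusted p 0.108 to 0.145). Ltbr lost it without any library of days 5 and 28, Nfkb2 without a day 5 library or day 28 replicate 1, and Relb without day 5 replicates 1 or 2 or either day 28 library, with adjusted p-values of 0.0510 to 0.184.

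Cxcl14, which has no well established receptor (chromosome 13, 56288643 to 56296551, minus strand), was at 6.08, 8.18 and 6.76 FPKM at day 5, 11.2 and 36.6 FPKM at day 14 and 59.2 and 51.8 FPKM at day 28. The 3 days did not overlap and the level was higher at each later day. The rise from day 5 to day 28 was stringent DE (log2 fold change 3.00, SE 0.38, adjusted p = 0.00213, 95% interval 1.94 to 4.07). It was called under all 17 alternatives that were run, each with a log2 fold change of 2.82 to 3.12. Between days 5 and 14 the rise was also stringent DE (1.79, SE 0.38, adjusted p = 0.0366), and between days 14 and 28 the difference of 1.21 was not called (SE 0.41, adjusted p = 0.279).

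The steps of Cxcl14 through day 14 rested on which library of that day was used. As a share of each library's total fragments, day 14 replicate 2 held 3.49 times as much as replicate 1. The 95% interval was 3.10 to 3.95 for counting error only. Without replicate 2 the log2 fold change from day 5 was 0.69 (adjusted p = 0.0868) and that from day 14 to day 28 was 2.31 (adjusted p = 1.94e-04). Without replicate 1 the same steps were 2.40 (adjusted p = 1.96e-05) and 0.60 (adjusted p = 0.247). The first step also lost its call without each library of days 5 and 28 (adjusted p 0.0663 to 0.123). Within a library, Cxcl14 was below Cxcl10 in all 3 day 5 libraries and in day 14 replicate 1, and above it in the other 3.

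Cxcl16 (chromosome 11, 70453983 to 70459984, minus strand) was at 179, 145 and 141 FPKM at day 5, 196 and 132 FPKM at day 14 and 125 and 138 FPKM at day 28. Both day 28 libraries were below all of day 5, and the day 14 libraries overlapped with both days. None of the differences was called: 0.09 between days 5 and 14 (SE 0.18, adjusted p = 0.800, 95% interval -0.41 to 0.58), -0.31 between days 14 and 28 (SE 0.20, adjusted p = 0.554) and -0.22 between days 5 and 28 (SE 0.18, adjusted p = 0.432, interval -0.72 to 0.28). It overlaps 552 bases of Zmynd15 on the opposite strand, a gene with 1447 to 2011 fragments per library, so reads in the overlap are uncertain. The receptor gene Cxcr6 was counted at 2 to 17 fragments and was not called.

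Shedding of CXCL16 and trimming of the other chemokines depend on proteases, of which 6 were listed and 5 tested. Adam10 stood at 40.5 to 54.2 FPKM and Adam17 at 69.2 to 107 FPKM, and neither was called in any comparison (smallest adjusted p = 0.0893). Dpp4, which removes the first residues of CXCL9, CXCL10 and CXCL12, was at 0.207 to 0.895 FPKM and was not called. Mmp9, a gelatinase, was lower at day 28 than at day 5 (log2 fold change -1.69, SE 0.22, adjusted p = 0.00215). Mmp12, the macrophage elastase, was the one gene of the list called higher (day 28 vs day 5, log2 fold change 4.20, SE 0.66, adjusted p = 0.00485). Its levels were 18.7, 42.8 and 26.2 FPKM at day 5, 36.5 and 251 FPKM at day 14 and 633 and 431 FPKM at day 28. Between days 5 and 28, 7.74% of all genes were higher and 7.51% lower. The Mmp9 and Mmp12 calls held under all 17 alternatives. As with Cxcl14, the Mmp12 level of day 14 replicate 2 was above every day 5 library and closer to day 28 than replicate 1 was.

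Groups of libraries that do not overlap were common among all genes, so that count was read against them. Of the 6 chemokines, 3 were above day 5 in both day 14 libraries (all genes, 21.9%, with 21.4% below), and 4 were above day 5 in both day 28 libraries (all genes, 26.0%), with Cxcl16 below (all genes, 25.6%). Between days 14 and 28, Cxcl14 was higher without overlap and Cxcl12 and Cxcl13 lower, where 19.3% of all genes were higher and 19.7% lower without overlap.

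The genes whose level followed each chemokine most closely over the 7 libraries were ranked by Pearson's r of log2(FPKM + 1), among genes of at least 5 FPKM on average (7556 for Cxcl9, Cxcl12 and Cxcl13, and 7555 for the others). For Cxcl14 these included Alas1, the first enzyme of heme synthesis (r = 0.996), and Procr, the endothelial protein C receptor (0.995), each with the same order of libraries as Cxcl14. For Cxcl12 they were Cyth3 (0.982), Bgn, the matrix proteoglycan biglycan (0.973), and Rps14 (0.965). For Cxcl13 they were Coa4 (0.973), Cops7a (0.965) and Tssc4 (0.963). For Cxcl16 they were Khk, the fructose kinase (0.995), Mafk (0.979) and the transcription factor gene Irf8 (0.976). Weaker leaders were found for Cxcl9, with Atp9b (0.954), Ssr4 (0.949) and Fam105b (0.949), and for Cxcl10, with Rabgap1l (0.925), Plxnc1 (0.910) and Tbc1d4 (0.903). With 7 libraries from 3 days and of unequal depth, these values are a description.

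**Figure D5:**
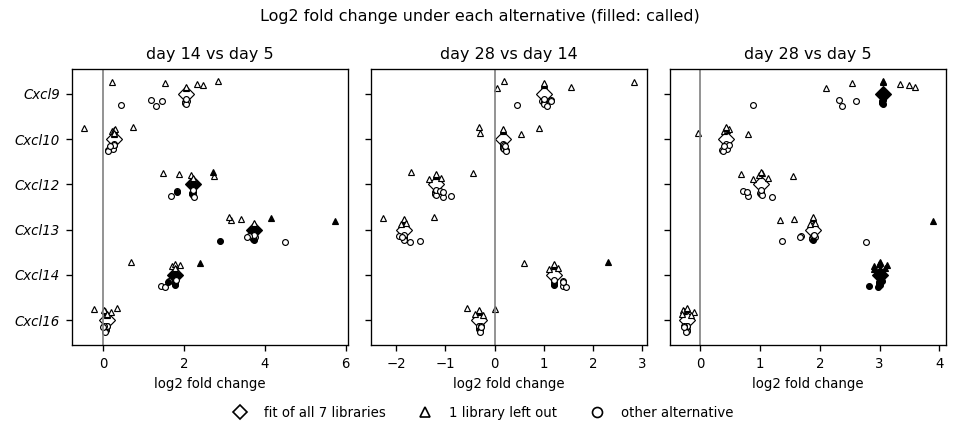
Log2 fold change (x axis) of each chemokine (y axis) in the fit of all 7 libraries (diamonds), with 1 library left out (triangles) and under the other alternatives (circles), for the 3 comparisons. Filled symbols were called. All symbols of Cxcl14 at day 28 vs day 5 are filled and lie between 2.82 and 3.12, whereas Cxcl12, Cxcl13 and Cxcl14 at day 14 vs day 5 were each called in 6 of 17 alternatives.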

How the data were processed

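Gene-level RNASeq values of sorted macrophages were taken for 7 libraries (3 from day 5, 2 each from days 14 and 28). The submitters' processing notes name cutadapt 1.8, TopHat2 2.0.13, Cuffdiff 2.2.1 and the build mm10, and the reads were single-end. The authors deposited expected counts (fragments before scaling, 1.01% not whole), a signal scaled by 1 factor per library, and FPKM values, which the authors adjusted for transcript length and library size. Strand use was not given in the sources used here.

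Rounded expected counts entered edgeR 4.0.16 (R 4.3.3), with TMM scaling, a filter on low counts set by time point, and a quasi-likelihood F test in 1 fit of all 7 libraries whose only factor was the time point. The p-values were adjusted after Benjamini and Hochberg over 12858 genes. This replaced cuffdiff, which could not be rerun. The replicates are called independent in the series design. Standard errors were derived from the F statistic. Intervals of log2 fold changes used these errors and a t distribution on the 4 residual degrees of freedom, which the F test did not use alone. An interval can therefore include 0 at an unadjusted p under 0.05, as for Cxcl12 between days 14 and 28. Levels are mean ± SD of FPKM, and the floor was 3 fragments. Count ratios divide fragments by each library's total, without TMM scaling. Floors and count ratios cover counting error only. Alternatives were DESeq2 1.42.0, limma 3.58.1 on log2(FPKM + 1) or log2(FPKM + 0.1), other scalings, no filter, 2 time points at a time, a replicate block, an adjusted p under 0.01 and 7 fits without 1 library. On simulated fragments of 7 libraries (200 of 12566 genes changed at day 14), day 14 was compared with day 5. There edgeR recovered 200 with 11 false calls, DESeq2 200 with 18 and limma 200 with 17. The changes were large, were planted only in genes with many fragments and had the same set spread for every gene. These counts therefore do not tell how well changes are found in genes as low or variable as the chemokines here.

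The 6 genes, the lists of pathway genes (receptors, Cxcl11, proteases, interferon, lymphotoxin) and the marker lists were chosen with earlier results of these data known. Named were the 6, all receptors, each listed pathway gene with a call and the 3 genes most like each chemokine, with marker genes given by their lists. A few items that this rule would name are not reported here. Coordinates are from GENCODE on GRCm38. Python 3.11.15 with pandas 2.3.3, numpy 2.4.6, scipy 1.17.1 and matplotlib 3.10.9 was used.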

Additional observations from a re-analysis of the deposited data

How the results depend on the processing

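Cxcl14, Mmp9 and Mmp12 at day 28 vs day 5 were called under all 17 alternatives. By Spearman's rho, 0 genes were more like Cxcl10, Cxcl13, Cxcl14 and Cxcl16 than their leading gene, 24 were for Cxcl9 and 191 for Cxcl12. Of the 6 chemokines, the 3 DE, and likewise the 3 stringent DE, between days 5 and 14 became 0 at an adjusted p under 0.01, 1 and 0 with limma on log2(FPKM + 1) and log2(FPKM + 0.1), 0 with the 2 time points alone and 0 to 2 with 1 library left out. The 0 between days 14 and 28 became 1 (Cxcl14) without the filter and 0 to 1 with 1 library left out, stringent or not. The 2 between days 5 and 28 became 1 at an adjusted p under 0.01, 1 with limma at either pseudocount and 1 to 2 with 1 library left out, and the 1 stringent DE became 2 with a minimum of 1 FPKM. Among the 6, 5 values turned sign, all under left-out libraries: Cxcl10 (-0.47) and Cxcl16 (-0.22) at day 14 vs day 5 without day 14 replicate 1, Cxcl10 at day 28 vs day 14 without day 14 replicate 2 (-0.32) or day 28 replicate 2 (-0.30), and Cxcl10 at day 28 vs day 5 without day 28 replicate 2 (-0.035). With 1 library left out these 4 ran from -0.47 to 0.75, -0.22 to 0.35, -0.32 to 0.90 and -0.035 to 0.80. The cause was not tested.

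Pathway genes called between days 5 and 14 were 4, and became 0 at an adjusted p under 0.01, 7 with DESeq2, 2 with size factors or cuffdiff scaling, 7 without the filter, 0 with limma, 1 with the 2 time points alone and 0 to 8 with 1 library left out. Between days 14 and 28 the 0 became 3 with DESeq2, 4 without the filter and 0 to 9 with 1 library left out. Between days 5 and 28 the 9 became 3 at an adjusted p under 0.01, 14 with the 2 time points alone and 3 to 15 with 1 library left out. Over all genes, the 614, 8 and 1960 DE genes became 24, 0 and 597 at an adjusted p under 0.01, and 52 to 1728, 0 to 629 and 452 to 2746 with 1 library left out. The 614 and 8 became 1366 and 332 with DESeq2, 1429 and 390 without the filter, 252 and 0 or 277 and 0 with limma, and 315 and 0 with the 2 time points alone.

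Deviations of same-numbered libraries from their day's mean were correlated over 7613 genes. The r was 0.368 and 0.0433 (days 5 and 14), -0.127 (days 14 and 28), and -0.0329 and 0.0179 (days 5 and 28). Where a day has 2 libraries, their deviations mirror each other, so these values cannot decide whether the numbers pair the libraries. With the replicate block, 0, 0 and 1 of the 6 were DE (stringent 0, 0 and 1), with 0, 0 and 5 pathway genes and 6, 0 and 735 of all genes. With the day 28 numbers swapped in the block, chosen after the data were seen, 2, 0 and 1 of the 6, 2, 2 and 8 pathway genes and 357, 63 and 1579 all-gene calls were made. Precision was limited by 2 libraries at each later day and, for Cxcl9 and Cxcl13 at day 5, by 0 to 51 fragments.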

Other observations

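Beside the chemokines described above, the 2 libraries of day 14 and of day 28 differed in several genes of the same system by more than counting error. The share of all genes that differ so was not computed, so these differences are not read as particular to these genes. Ratios here are of fragments as a share of each library's total, so they differ somewhat from ratios of FPKM. Day 14 replicate 1 held 5.89 times as much Cxcl9 as replicate 2 (95% interval 2.96 to 13.0, counting error only), 2.19 times as much Cxcl10 (1.88 to 2.54), 2.23 times as much Cxcl12 (1.86 to 2.68) and 1.39 times as much Cxcl16 (1.34 to 1.43). For Cxcl11 the ratio was 14.6 (4.64 to 74.1), from 38 and 3 fragments, and for the receptor gene Cxcr3 it was 1.86 (1.29 to 2.72). Replicate 2 held 2.18 times as much Cxcl13 as replicate 1 (1.79 to 2.68) and 2.40 times as much of the scavenger receptor gene Ackr3, listed as Cxcr7 (1.88 to 3.10). At day 28, replicate 1 held 2.90 times as much Cxcl9 as replicate 2 (1.99 to 4.37), while replicate 2 held 1.73 times as much Cxcl10 as replicate 1 (1.54 to 1.94). By this measure Cxcr4 differed within either day by a ratio of at most 1.03, with 300 and 277 FPKM in the day 14 libraries. Even so, its day 28 interval of 1.002 to 1.054 (replicate 1 to replicate 2) left out a ratio of 1.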
